A study of Mus musculus with 6 samples.

Results

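The genes described here were the 3 ligands (Tgfb1, Tgfb2 and Tgfb3), the 3 receptors (Tgfbr1, Tgfbr2 and Tgfbr3) and 4 Smads (Smad2, Smad3, Smad4 and Smad7) of transforming growth factor beta (TGF-β) signalling. They were chosen by name for their roles, by a choice made with earlier results of these data known, and they make up 10 of the 25239 genes listed in the hippocampal RNA sequencing counts of this study. Hippocampi came from 3 WT mice (Ube3a m+/p+) and 3 Ube3a m-/p+ mice, all male, on a C57BL/6 background and 6 to 8 weeks old, with 1 library per mouse. Ube3a m-/p+ mice lack a functional maternal copy of Ube3a and keep the paternal copy. They serve as a model of Angelman syndrome (AS), and the study asked which transcripts differ in their hippocampus, with attention to genes controlled by retinoic acid (RA). Tgfb1, Tgfb2, Tgfb3, Tgfbr1 and Tgfbr2 are on the list of RA-targeted genes that the study assembled.

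TGF-β ligands are secreted in a latent complex and, once released, bind the type II receptor (Tgfbr2), which recruits and phosphorylates the type I receptor (Tgfbr1, also called ALK5). The type I receptor kinase phosphorylates Smad2 and Smad3, which join the common partner Smad4, enter the nucleus and regulate transcription, while Smad7 is induced by the pathway and inhibits the receptors. In the brain the pathway is known for its roles in microglial identity, in astrocytes, in blood vessels and in neuronal survival and synapses.

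Expression is given as CPM, the counts on a gene per 1000000 counts on all genes of that library. WT libraries held 7293272 to 8675252 counts on genes, and Ube3a m-/p+ libraries 8871052 to 11314409. Genes were called by edgeR's quasi-likelihood test, over the 14445 genes with enough counts, when the adjusted p was under 0.05 and the change exceeded 1.2-fold. By this rule 290 genes (2.01%) were called, with 143 (0.99%) lower in Ube3a m-/p+ mice and 147 (1.02%) higher. Ube3a itself measured 104, 141 and 151 CPM in WT mice 1, 2 and 3 and 96.8, 82.9 and 80.6 CPM in Ube3a m-/p+ mice 1, 2 and 3. The log2 fold change was -0.58 ± 0.12 (SE, adjusted p = 0.0363, edgeR), and 1803 bp of its exons overlap Snhg14 on the opposite strand. With the libraries corrected for GC and length as described with Tgfbr1 it was -0.20 (adjusted p = 0.240, edgeR). The mice numbered 1 stood apart from the others of their genotype. The deviation of each library from the average library was set against transcript GC content over 14201 genes, which are no independent replicates. Spearman's rho in WT mice 1 to 3 was 0.0455, -0.506 and -0.571, and the Ube3a m-/p+ mice 1 to 3 gave 0.0588, 0.526 and 0.528. Whether the libraries of both genotypes were prepared in 1 batch is not given in the sources used here. With both mice numbered 1 left out, an alternative chosen after seeing the data, 28.3% of all genes tested were called (14.6% lower and 13.6% higher), and values of that fit are given beside the named genes whose call it changed and some others.

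All 10 genes had enough counts to be tested, with 29 to 1131 counts per library. The type I receptor Tgfbr1 was called, and its expression fell in Ube3a m-/p+ mice. This was 1 of 10 genes (10%), against 2.01% of all genes tested, which is a description, since the choice of the genes was not independent of these data, and Tgfbr1 was also the only one with an unadjusted p below 0.05 (edgeR), against 24.6% of all genes. Tgfbr1 and Smad2 were lower and Tgfb3 was higher in every Ube3a m-/p+ mouse than in every WT mouse, so that 3 of the 10 genes (30%) had no overlap between genotypes, against 25% of all genes tested (14.2% lower and 10.8% higher). Over the 10 genes the log2 fold changes had a median of -0.03, with 5 above 0 and 5 below, and that of all genes tested was 0.0025. Of the 10, 5 lay between the 25th percentile (-0.18) and the 75th percentile (0.18) of all genes. Both the share without overlap and the median were thus near those of all genes. In tissue RNA, fewer cells of a type and less RNA per cell cannot be told apart.

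**Figure D1:**
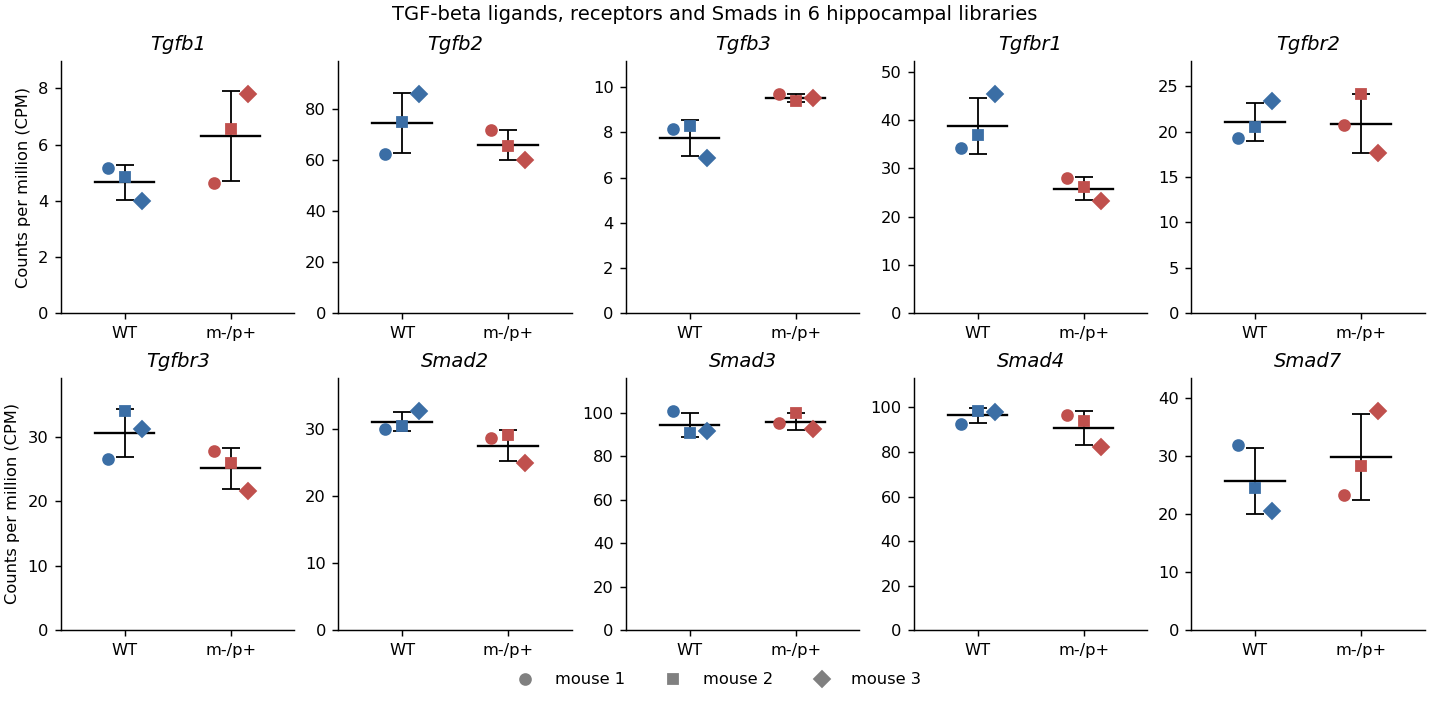
CPM of each of the 10 genes in the 3 WT and the 3 Ube3a m-/p+ mice, on 1 linear axis per gene starting at 0, with a marker shape for each mouse number and a bar at the mean with its SD. The points of the genotypes are apart for Tgfbr1 (34.3 to 45.4 CPM against 23.3 to 28.1 CPM), Smad2 and Tgfb3, and overlap for the other genes.

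The receptors carried the called gene. Tgfbr1 (chromosome 4, 47353222 to 47414931, plus strand, GRCm38, GENCODE M21) encodes the serine/threonine kinase that passes the ligand signal to Smad2 and Smad3. It measured 34.3, 36.9 and 45.4 CPM in WT mice 1, 2 and 3 and 28.1, 26.1 and 23.3 CPM in Ube3a m-/p+ mice 1, 2 and 3. The WT mean was 38.8 ± 5.81 CPM (SD, n = 3) and the Ube3a m-/p+ mean 25.8 ± 2.40 CPM (SD, n = 3), and no Ube3a m-/p+ mouse reached the lowest WT mouse. The log2 fold change was -0.57 ± 0.12 (SE, 95% interval -0.83 to -0.31), 0.673 times the WT level, with an adjusted p of 0.0376 (edgeR), and 2.16% of all genes tested had a log2 fold change as low or lower. An exact permutation test of the 6 mice gave p = 0.1 (two-sided), the smallest value that 3 against 3 allows. Tgfbr1 is also among the genes that the study displayed from these libraries, so that its presence in the list is not independent of its difference.

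The call of Tgfbr1 depended on the processing and on single mice, while its direction was the same in all 16 alternative fits. When every library was corrected for the GC content and the length of transcripts, the log2 fold change was -0.31 (adjusted p = 0.134, edgeR). The longest Tgfbr1 transcript has 41.0% GC, against a median of 49.9% over all genes, and the 1653 tested genes under 42% GC had a median log2 fold change of -0.28, with 94 called lower and 0 higher (edgeR; by DESeq2 281 lower and 2 higher, and at an unadjusted p below 0.05 in edgeR 746 lower and 11 higher). Without WT mouse 2, WT mouse 3, Ube3a m-/p+ mouse 2 or Ube3a m-/p+ mouse 3 the adjusted p of Tgfbr1 rose above 0.05 (0.146 to 0.251, edgeR), at log2 fold changes of -0.65 to -0.45 over the 6 fits that each left out 1 mouse. With both mice numbered 1 left out it was -0.71 (adjusted p = 0.000235, edgeR). Over the 16 alternatives the adjusted p lay between 0.000235 and 0.260, and 9 of them kept the call.

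The other receptors were not called. The type II receptor Tgfbr2 (chromosome 9, 116084293 to 116175360, minus strand) measured 19.3, 20.5 and 23.3 CPM in WT mice and 20.7, 24.1 and 17.7 CPM in Ube3a m-/p+ mice. The WT range lay within the Ube3a m-/p+ range, with means of 21.0 ± 2.05 CPM and 20.9 ± 3.23 CPM (SD, n = 3 each), and the log2 fold change of 0.01 ± 0.14 (SE, 95% interval -0.29 to 0.30, adjusted p = 0.978, edgeR) gave no direction. The coreceptor Tgfbr3, also called betaglycan, binds all 3 ligands, TGF-β2 in particular, and presents them to the type II receptor (chromosome 5, 107106570 to 107289629, minus strand). Its values were 26.5, 34.0 and 31.1 CPM in WT mice and 27.7, 25.9 and 21.6 CPM in Ube3a m-/p+ mice. Only WT mouse 1 fell within the Ube3a m-/p+ range, and the log2 fold change was -0.27 ± 0.13 (SE, 95% interval -0.54 to 0.00, adjusted p = 0.209, edgeR). With both mice numbered 1 left out Tgfbr3 was called lower, at -0.44 (adjusted p = 0.0118, edgeR). Tgfbr3 shares 297 bp of exon with the predicted gene Gm43422 on the same strand, which has no entry in the counts.

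The sequences upstream of the start sites were read for the called receptor and, for contrast, for the ligand with the largest log2 fold change in the other direction. A GC box (GGGCGG, either strand, overlapping matches counted), the motif known to bind Sp1 family factors, is in capitals, and the sequences are those of RefSeq on GRCm38.p6, plus strand, 5′ to 3′. For Tgfbr1 (chr4:47352972-47353221) and Tgfb1 (chr7:25686752-25687001) the 250 bases before the start site are shown.
Tgfbr1: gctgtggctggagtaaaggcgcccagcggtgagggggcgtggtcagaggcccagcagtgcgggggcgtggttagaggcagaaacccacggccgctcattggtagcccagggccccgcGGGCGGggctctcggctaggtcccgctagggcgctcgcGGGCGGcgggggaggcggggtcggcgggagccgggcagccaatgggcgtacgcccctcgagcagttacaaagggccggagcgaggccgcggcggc
Tgfb1: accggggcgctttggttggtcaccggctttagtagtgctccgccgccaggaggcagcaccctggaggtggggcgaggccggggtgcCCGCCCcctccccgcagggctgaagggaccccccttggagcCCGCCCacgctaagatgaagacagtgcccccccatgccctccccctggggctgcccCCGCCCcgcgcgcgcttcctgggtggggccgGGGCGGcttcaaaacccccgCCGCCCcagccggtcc
The Tgfbr1 stretch held 2 GC boxes at 74.8% GC, and the Tgfb1 stretch held 5 at 75.2% GC. Over the window of 300 bases around the start site, GC content was 74.7% for this start of Tgfbr1 and 77% for Tgfb1, against a median of 52.7% over all promoter windows. The window of the other Tgfbr1 start (chr4:47385966-47386265) had 52% GC.

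RefSeq windows from 250 bases before to 50 bases after a start site were read for 5 of the 10 genes. There were 6 windows in all, since Tgfbr1 has a pair of them. Windows on chromosome 18, where Smad2, Smad4 and Smad7 lie, were left out of this reading. For Tgfb3 and Tgfbr3 no window was found among those available. A GC box was found in 3 of the 6 windows, those of Tgfb1, Smad3 and the upstream start of Tgfbr1, and in 35.7% of all 32851 windows. TATAAA was found in 1 window, that of Tgfb2, at 31 bases before the start site, and in 13.6% of all windows. The palindromic Smad-binding sequence GTCTAGAC was in 0 of the 6 and in 0.213% of all windows. The direct repeats to which RA receptors are known to bind, a pair of AGGTCA copies with 5 or with 2 bases between them, were in 0 of the 6 and in 3 of all windows each, either strand.

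The ligands were low in expression, Tgfb2 excepted, and none was called (0 by edgeR, also at an unadjusted p below 0.05, and 0 by DESeq2, which gave no adjusted p for Tgfb1). Tgfb1 (chromosome 7, 25687002 to 25705077, plus strand), the ligand best known for restraint of microglia and immune cells, had only 44, 42 and 29 counts in WT mice and 41, 74 and 82 in Ube3a m-/p+ mice. These were 5.18, 4.84 and 3.98 CPM in WT mice and 4.62, 6.54 and 7.79 CPM in Ube3a m-/p+ mice. Ube3a m-/p+ mice 2 and 3 lay above all WT mice and Ube3a m-/p+ mouse 1 lay within them, and the log2 fold change of 0.46 ± 0.24 (SE, 95% interval -0.05 to 0.97) had an adjusted p of 0.250 (edgeR). With both mice numbered 1 left out it was 0.71 (adjusted p = 0.0522, edgeR). Tgfb3 (chromosome 12, 86056745 to 86079041, minus strand), a ligand best known from palate and lung development, measured 8.13, 8.30 and 6.86 CPM in WT mice and 9.69, 9.37 and 9.51 CPM in Ube3a m-/p+ mice. Every Ube3a m-/p+ mouse lay above every WT mouse, on 50 to 106 counts per library, with a log2 fold change of 0.31 ± 0.18 (SE, 95% interval -0.07 to 0.68, adjusted p = 0.289, edgeR). The 3 Ube3a m-/p+ mice were close to each other, with an SD of 0.164 CPM against 0.789 CPM in WT (n = 3 each), and the exact permutation p was 0.1 (two-sided), the smallest value possible.

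Tgfb2 (chromosome 1, 186622792 to 186705989, minus strand) was the ligand with the highest level per transcript length. It measured 62.2, 74.9 and 85.7 CPM in WT mice and 71.7, 65.2 and 60.0 CPM in Ube3a m-/p+ mice. The genotypes overlapped, and the log2 fold change was -0.16 ± 0.11 (SE, 95% interval -0.40 to 0.08, adjusted p = 0.396, edgeR). WT mouse 1 had the lowest and Ube3a m-/p+ mouse 1 the highest value of its genotype. Without both of them Tgfb2 was called lower, at -0.34 (adjusted p = 0.00794, edgeR). Tgfb2 shares 124 bp of exon with the antisense gene Gm29491, and Tgfb3 shares 163 bp with Gm37804 and 257 bp with Gm48008 on the opposite strand, none of which has an entry in the counts.

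Among the Smads, which carry the signal to the nucleus, none was called (0 by edgeR, also at an unadjusted p below 0.05, and 0 by DESeq2). Smad2, a substrate of Tgfbr1, measured 30.04, 30.5 and 32.8 CPM in WT mice and 28.6, 29.2 and 24.9 CPM in Ube3a m-/p+ mice (chromosome 18, 76241580 to 76310963, plus strand). Every Ube3a m-/p+ mouse lay below every WT mouse, by a margin of less than 1 CPM at the nearest pair, and the log2 fold change was -0.16 ± 0.11 (SE, 95% interval -0.39 to 0.08, adjusted p = 0.402, edgeR). It was 0.01 with the GC and length correction, so that its direction depended on that setting. Smad3, the other substrate (chromosome 9, 63646767 to 63757994, minus strand), measured 101, 90.7 and 91.6 CPM in WT mice and 95.3, 99.96 and 92.6 CPM in Ube3a m-/p+ mice. Its log2 fold change of 0.04 ± 0.09 (SE, 95% interval -0.15 to 0.23, adjusted p = 0.811, edgeR) became -0.03 after the same correction. All 6 mice lay within a narrow range.

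Smad4, the partner shared with the bone morphogenetic protein (BMP) branch of the pathway (chromosome 18, 73639009 to 73703780, minus strand), measured 92.7, 98.6 and 98.0 CPM in WT mice. It measured 96.6, 93.8 and 82.3 CPM in Ube3a m-/p+ mice, with a log2 fold change of -0.07 ± 0.09 (SE, 95% interval -0.26 to 0.12, adjusted p = 0.676, edgeR). Ube3a m-/p+ mouse 3 alone lay well below the other mice. Smad7, the inhibitor (chromosome 18, 75367529 to 75395935, plus strand), measured 31.8, 24.4 and 20.6 CPM in WT mice and 23.2, 28.2 and 37.7 CPM in Ube3a m-/p+ mice. It had the widest spread of the Smads relative to its mean, and the log2 fold change was 0.23 ± 0.19 (SE, 95% interval -0.18 to 0.65, adjusted p = 0.476, edgeR). WT mouse 1 lay above 2 of the 3 Ube3a m-/p+ mice. With both mice numbered 1 left out Smad7 was called higher, at 0.56 (adjusted p = 0.0103, edgeR), but the difference was 0.017 without Ube3a m-/p+ mouse 3, 0.098 without WT mouse 3 and 0.065 with the GC and length correction (adjusted p = 0.972, 0.839 and 0.905, edgeR).

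**Figure D2:**
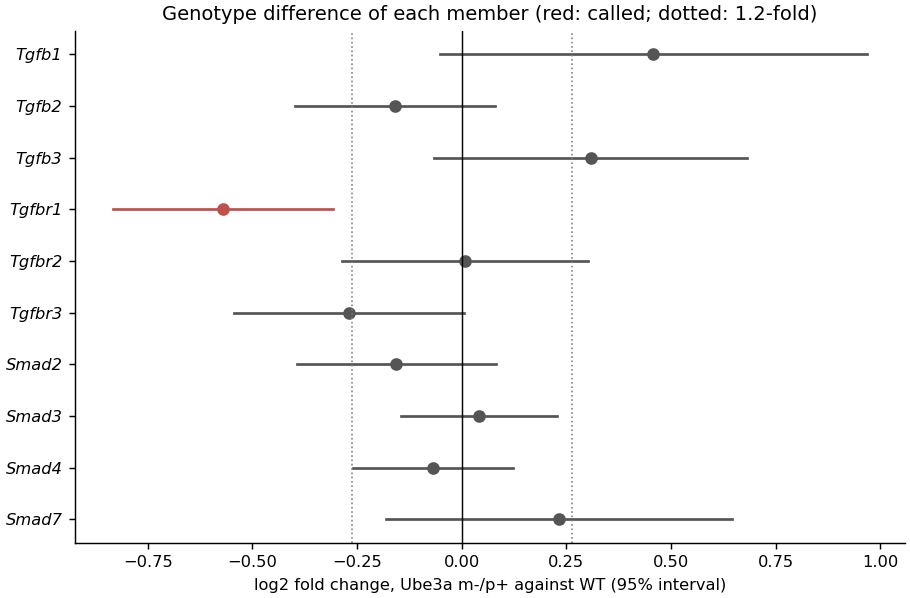
Log2 fold change of each gene, Ube3a m-/p+ against WT, with its 95% interval from edgeR, with dotted lines at 1.2-fold in either direction and the called gene in red. The interval of Tgfbr1 (-0.83 to -0.31) lies wholly below 0, and those of the other 9 genes reach or cross 0.

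Each level was divided by the length of the longest annotated transcript to order the genes within WT mice. Smad4 had the highest level, at 28.5 CPM per kb, followed by Smad3 (18.5 CPM per kb) and Tgfb2 (14.5 CPM per kb). Tgfbr1 (6.75 CPM per kb), Smad7 (5.98 CPM per kb) and Tgfbr3 (5.02 CPM per kb) came next, and their neighbouring ranges over the 3 WT mice overlapped. Smad2 (3.85 CPM per kb), Tgfbr2 (2.60 CPM per kb), Tgfb3 (2.29 CPM per kb) and Tgfb1 (1.81 CPM per kb) were lowest, and of these only the neighbours Tgfbr2 and Tgfb3 overlapped. The highest level was 15.7 times the lowest. In Ube3a m-/p+ mice Tgfbr1 measured 4.48 CPM per kb and Smad7 6.95 CPM per kb, so that the order of their means was the opposite of that in WT.

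**Figure D3:**
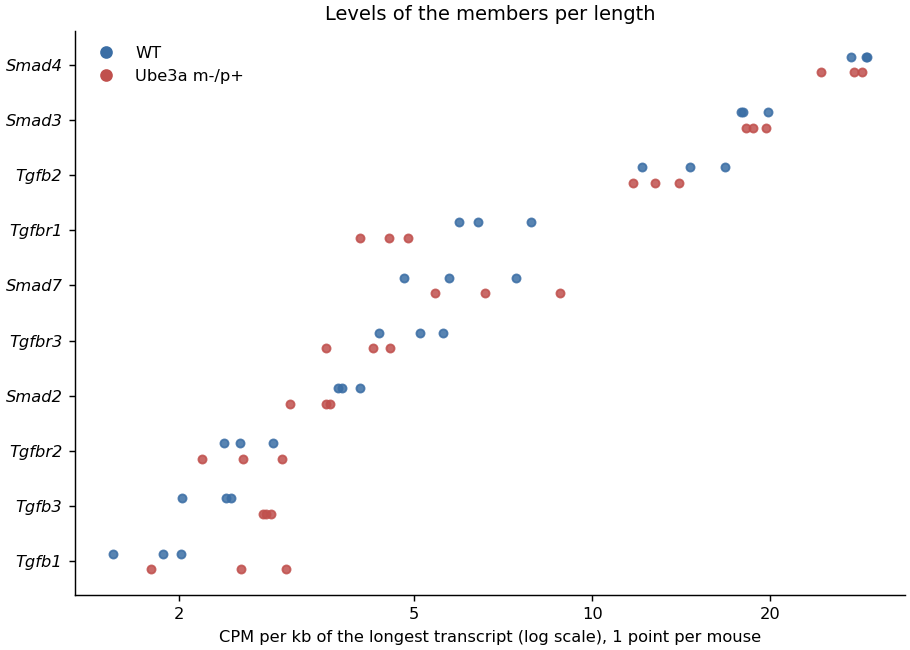
Level of each gene in CPM per kb of its longest transcript, on a log axis, with 1 point per mouse, the genotypes in separate colours and the genes ordered by the WT mean. Smad4 is at the top (28.5 CPM per kb in WT) and Tgfb1 at the bottom (1.81 CPM per kb), and only the points of Tgfbr1, Smad2 and Tgfb3 separate by genotype.

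Over all genes tested, the log2 fold changes ran along transcript GC content. The median log2 fold change of all genes tested was -0.16 at 42 to 46% GC, where Smad2 lies, and -0.06 at 46 to 50%, where Tgfb2, Tgfbr2, Tgfbr3 and Smad4 lie. It was 0.05 at 50 to 54%, where Tgfb1, Tgfb3 and Smad3 lie, and 0.20 above 54%, where Smad7 lies. Of the 143 genes called lower, 94 had under 42% GC, and of the 147 called higher, 115 had over 54% GC. Tgfbr1, at -0.57, was below the 25th percentile of its own bin (-0.40), and Tgfbr3, at -0.27, was below that of its bin (-0.17). Tgfb1, at 0.46, and Tgfb3, at 0.31, were above the 75th percentile of theirs (0.19). The other 6 genes lay within the quartiles of their bins. Whether any of them differed from genes of like GC content was not tested.

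**Figure D4:**
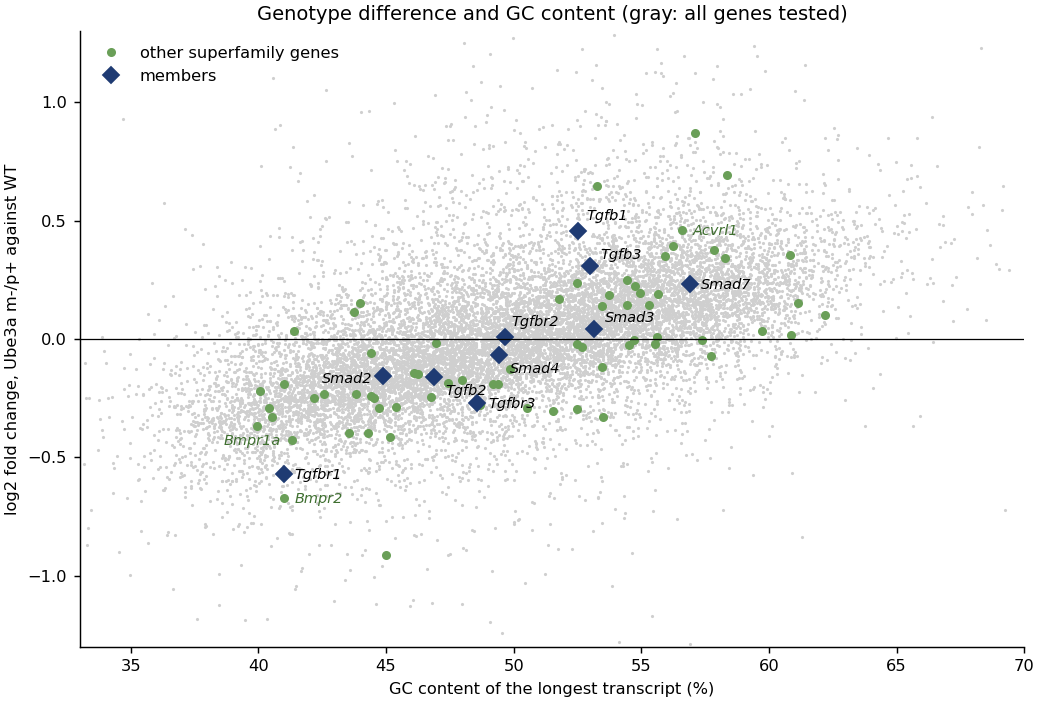
Log2 fold change, Ube3a m-/p+ against WT, of each gene tested (gray points) against the GC content of its longest transcript in percent, with the 10 genes as labelled diamonds and other superfamily genes as green points. The cloud rises from left to right, Tgfbr1, Bmpr1a and Bmpr2 lie at its low-GC end, and 30 genes lie outside the plotted ranges.

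Another 78 genes of the wider TGF-β superfamily were listed, of which 68 had enough counts to be tested. Of these, 2 (2.94%, against 2.01% of all genes tested) were called, both lower and both receptors of the BMP branch, and 0 were called higher (edgeR; 5 higher at an unadjusted p below 0.05, and 0 higher by DESeq2). At an unadjusted p below 0.05, 13 were lower and 5 higher (26.5%, against 24.6% of all genes, edgeR). Of all genes, 12.4% were lower and 12.2% higher at that threshold. The median log2 fold change was -0.05, with 41 below 0 and 27 above. The summed share of lower and higher genes at an unadjusted p below 0.05 was near that of all genes (26.5% against 24.6%, edgeR). The lower genes outnumbered the higher ones, while over all genes both were nearly even, and this was not tested.

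Of the 10 other type I and type II receptors and coreceptors, 2 (20%) were called lower, against 0.99% of all genes tested. This is a description, since the list was chosen with earlier results of these data known. The median log2 fold change of the 10 was -0.23. Bmpr2, the type II BMP receptor, measured 176, 226 and 269 CPM in WT mice and 164, 124 and 128 CPM in Ube3a m-/p+ mice, with no overlap. It fell from 223 ± 46.5 to 139 ± 22.01 CPM (SD, n = 3 each), with a log2 fold change of -0.67 ± 0.15 (SE, adjusted p = 0.0427, edgeR). Bmpr1a, a type I BMP receptor also called ALK3, measured 65.3, 76.8 and 78.3 CPM in WT mice and 60.8, 52.9 and 48.5 CPM in Ube3a m-/p+ mice. It fell by 0.43 on the log2 scale (SE 0.11, adjusted p = 0.0492, edgeR), again with no overlap. Their transcripts have 41.0% and 41.3% GC, as low as that of Tgfbr1, and with the GC and length correction the log2 fold changes were -0.40 (adjusted p = 0.0728, edgeR) and -0.18 (adjusted p = 0.300, edgeR). Both calls were lost without WT mouse 2, WT mouse 3, Ube3a m-/p+ mouse 2 or Ube3a m-/p+ mouse 3, with adjusted p of 0.186 to 0.258 for Bmpr2 and 0.182 to 0.272 for Bmpr1a (edgeR). Without both mice numbered 1 the log2 fold changes were -0.95 and -0.60. Acvr2a, an activin type II receptor, had a log2 fold change of -0.37 ± 0.11 (SE, adjusted p = 0.0671, edgeR). Acvrl1, an endothelial type I receptor also called ALK1, had one of 0.46 ± 0.15 (SE, adjusted p = 0.0825, edgeR), and neither passed the test. Acvr2a was called by DESeq2 (adjusted p = 0.0420), with no filter (adjusted p = 0.0283, edgeR) and without WT mouse 1 or Ube3a m-/p+ mouse 1 (adjusted p = 0.00899 and 0.0152, edgeR), while the GC and length correction brought it to -0.090. Acvrl1 was called higher without WT mouse 1 (0.57, adjusted p = 0.0227, edgeR), while the GC and length correction brought it to 0.29 (adjusted p = 0.351, edgeR). Without both mice numbered 1, Acvr2a was at -0.55 (adjusted p = 0.000129, edgeR) and Acvrl1 at 0.56 (adjusted p = 0.0170, edgeR), both called.

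No gene of the other groups was called by edgeR, and Id2 was the only one called by DESeq2, which gave no adjusted p for Lrrc32, Bmp5, Bmp6, Smad6, Fstl3, Fst, Tgif1 and Tgfbi. Without both mice numbered 1, Itgav was called lower at -0.66, Id2 at -0.53 and Smurf2 at -0.40, and Fstl3 higher at 1.47 (adjusted p = 6.54e-05, 0.000383, 0.00399 and 0.0276, edgeR). Of 9 tested genes that store or activate latent TGF-β, 1 was lower and 3 were higher at an unadjusted p below 0.05, with a median log2 fold change of -0.03. At that threshold 12.4% of all genes tested were lower and 12.2% higher (edgeR). The largest differences were those of Lrrc32, also called GARP, which tethers latent TGF-β to the cell surface (0.69 ± 0.31 SE, adjusted p = 0.181, edgeR), and Itgav, the αv integrin that takes part in its release (-0.40 ± 0.13 SE, adjusted p = 0.0924, edgeR). Lrrc32 rested on 10 to 38 counts per library. Of 11 tested BMP, GDF and activin ligands, 0 passed an unadjusted p below 0.05 in either direction (edgeR; by DESeq2 0 were called), with a median log2 fold change of 0.03. Bmp6 (0.38, adjusted p = 0.319, edgeR) and Bmp5 (-0.33, adjusted p = 0.718, edgeR) differed most, and Bmp5 changed sign, to 0.06, without Ube3a m-/p+ mouse 2.

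The 4 other Smads had a median of -0.21, with 2 lower at an unadjusted p below 0.05. For this group and the next groups, the share of all genes tested that was lower at that threshold was 12.4% (edgeR). Smad1, which transmits BMP signals, had a log2 fold change of -0.30 ± 0.12 (SE, adjusted p = 0.148, edgeR), and Smad6, an inhibitor of that branch, one of 0.36 (adjusted p = 0.517, edgeR). The 9 secreted antagonists had a median of -0.19, with 1 lower at an unadjusted p below 0.05. Fstl3 (0.87, adjusted p = 0.251, edgeR) and Fst (-0.40, adjusted p = 0.552, edgeR), which both bind activins, differed most, with 6 to 27 counts of Fstl3 per library. The 13 intracellular regulators had a median of -0.06, with 2 lower at an unadjusted p below 0.05. They were led by the corepressor Tgif1 (-0.91 ± 0.39 SE, adjusted p = 0.169, edgeR), on 7 to 16 counts per library, and by the ubiquitin ligase Smurf2 (-0.25, adjusted p = 0.200, edgeR).

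The last group held transcripts known to be induced by TGF-β or BMP. Of 12 tested, 0 were called (edgeR), and the median log2 fold change was -0.05. At an unadjusted p below 0.05, 3 were lower and 1 was higher, against 12.4% and 12.2% of all genes tested (edgeR). Id2, a BMP target that encodes an inhibitor of basic helix-loop-helix factors, was just outside the threshold, at 59.5 ± 6.21 CPM in WT and 44.0 ± 2.91 CPM in Ube3a m-/p+ mice (SD, n = 3 each). Its log2 fold change was -0.41 ± 0.10 (SE, adjusted p = 0.0503, edgeR), with no overlap between genotypes. Of the 16 alternative fits 8 called Id2 and 8 did not. It was called with no filter (adjusted p = 0.0157, edgeR) but not without WT mouse 2 (adjusted p = 0.272, edgeR). With the GC and length correction it was at -0.34 (adjusted p = 0.0689, edgeR). Tgfbi, an extracellular matrix protein named for its induction by TGF-β, had a log2 fold change of 0.65 ± 0.28 (SE, adjusted p = 0.173, edgeR).

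**Figure D5:**
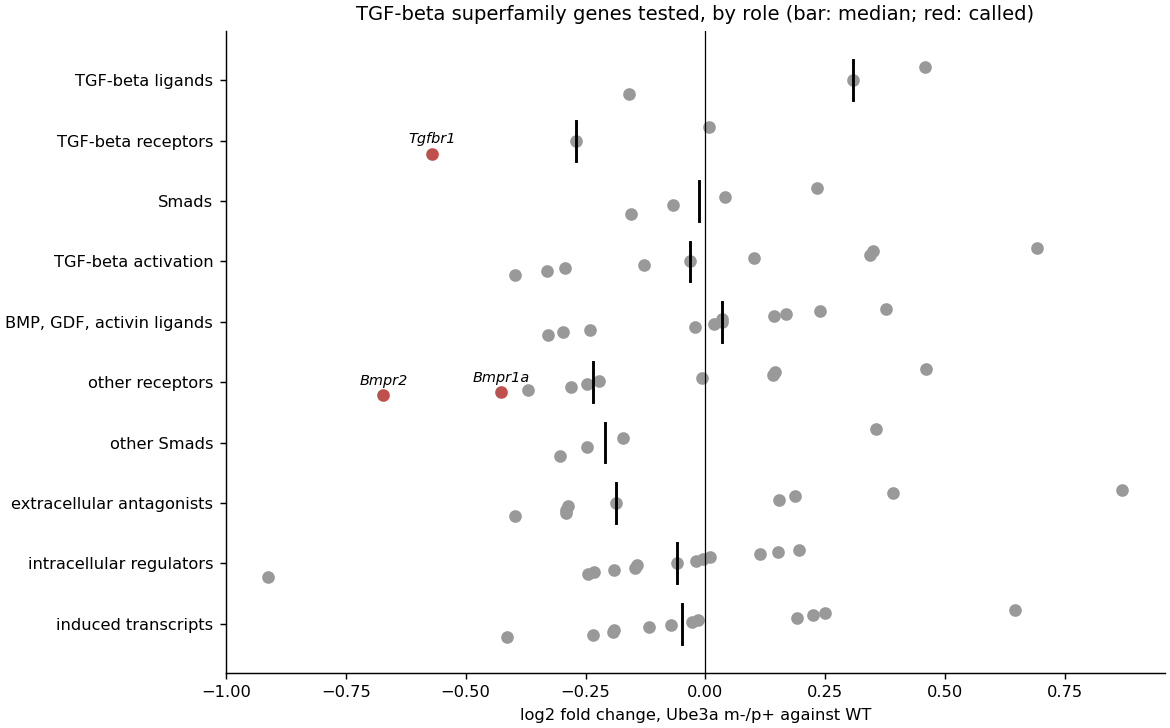
Log2 fold change, Ube3a m-/p+ against WT, of each tested gene of the pathway, with 1 point per gene in rows by role, a bar at the median of the row and called genes in red. The 3 called genes, Tgfbr1, Bmpr1a and Bmpr2, are all receptors and lie below 0, and the medians of the rows lie between -0.27 and 0.31.

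The genes whose profile over the 6 libraries was most like that of Tgfbr1 were 2900092D14Rik, Rora and Prex2. The root-mean-square difference of their centred log2 CPM from that of Tgfbr1 was 0.0274, 0.0510 and 0.0520. Their log2 fold changes were -0.55, -0.62 and -0.58, with adjusted p of 0.0387, 0.0387 and 0.0362 (edgeR). Since these genes were picked for likeness to Tgfbr1 in the same libraries, differences near that of Tgfbr1 follow from the choice. They are a description and no separate result. Rora encodes a nuclear receptor and Prex2 an exchange factor for Rac, and their transcripts have 40.9% and 40.6% GC.

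Markers of the cell types that could carry these transcripts were measured in the same libraries. Neuronal markers summed to 5188 to 5224 CPM in WT and 4966 to 5328 CPM in Ube3a m-/p+ mice, and every one of the 47 markers was detected in every library. Sums over the whole marker lists overlapped between genotypes for neurons, for endothelium (186 to 199 against 176 to 193 CPM), for meninges and fibroblasts (99.8 to 158 against 107 to 189 CPM) and for choroid plexus (99.4 to 2170 against 105 to 2260 CPM). They did not overlap for microglia (253 to 260 CPM in WT, 238 to 242 CPM in Ube3a m-/p+ mice), astrocytes (4257 to 4756 against 3700 to 4018 CPM), pericytes (212 to 230 against 181 to 200 CPM), mature oligodendrocytes (7534 to 7653 against 6229 to 7146 CPM) and oligodendrocyte precursors (175 to 185 against 155 to 168 CPM). Single markers of these 5 lists went both ways. Of the pericyte markers Rgs5 was called lower (127 to 87.9 CPM, 41.1% GC), while the other 4 had log2 fold changes above 0, from 0.05 for Pdgfrb to 0.58 for Kcnj8. Among the precursor markers Pdgfra was called lower, and C1ql1 was at 0.85 with no overlap (adjusted p = 0.0518, edgeR). The microglial P2ry12 was at -0.49, with C1qa at 0.47 and Tmem119 at 0.22. Log2 fold changes were below 0 for 3 of 5 microglial, 3 of 5 astrocyte and 3 of 5 mature oligodendrocyte markers. Although their sum overlapped, all 8 markers of meninges and fibroblasts had log2 fold changes above 0 (median 0.33). Of these, 3 were higher at an unadjusted p below 0.05, against 12.2% of all genes tested (edgeR), and 2 had no overlap, against 10.8%. Igf2 was the largest part of that sum, at a mean of 66.6 CPM in WT mice. Of all 47 markers, 2 were called lower and 1 higher, the fibroblast marker Col1a1 (6.38%, against 2.01% of all genes tested). The 5 sums were lower in the mice in which Tgfbr1 was lower, and their part in that result was not tested. The choroid plexus sum followed neither genotype, with WT mouse 2 and Ube3a m-/p+ mouse 3 at the low end.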

How the data were processed

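The deposited counts, whole numbers of reads per gene symbol in each of the 6 libraries, were made by the authors without normalization or pooling. The submitters' processing notes name STAR 2.7.4a, HTSeq and mm10. The annotation and the strand setting of the counting were not given in the sources used here. Summary lines (reads on no gene, 54.1 to 55.0% of all reads listed, ambiguous reads, 0.297 to 0.383%, and multiple alignments, 3.71 to 5.77%) were left out. No 2 libraries agreed within sampling noise.

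In R 4.3.3, edgeR 4.0.16 kept genes by filterByExpr and scaled libraries by TMM, and its quasi-likelihood F test was used (robust, genotype only, two-sided) with Benjamini-Hochberg adjustment over all 14445 genes kept. Printed CPM use the total gene counts. Log2 fold changes come from the fit, with their SE and 95% interval. Exact permutation tests used log2 CPM (SciPy 1.17.1). Likeness used log2 CPM with a prior count of 2. Alternatives comprised other scaling factors, DESeq2 (1.42.0), no filter or a minimum of 10 counts in every library, no fold threshold, an unadjusted p, the replicate number as a block, a spline correction (5 degrees of freedom each) for GC content and transcript length (14201 genes, 98.3%), and leaving out mice. Positions, lengths and GC content are those of GENCODE M21 on GRCm38, and promoter windows those of RefSeq. The steps were tested on simulated data.

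The 10 genes, the pathway lists and the marker lists were chosen with earlier results of these data known. The genes named are Ube3a, the 10 genes, the called genes and besides the 2 largest absolute log2 fold changes of each pathway list, and the 3 genes most like the gene of smallest p. Marker genes are named after their values were seen.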

Additional observations from a re-analysis of the deposited data

How the results depend on the processing

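In the fit reported, 290 genes were called, with 1 of the 10 genes, 2 other superfamily genes and 3 markers. The count over all genes was 951 with DESeq2, 1176 with no filter, 92 with the GC and length correction and 2832 with an unadjusted p. It ranged from 0 to 2582 over the fits that each left out 1 mouse. It was 0 without WT mouse 2, WT mouse 3 or Ube3a m-/p+ mouse 2 (edgeR; 2075, 2159 and 2128 genes at an unadjusted p below 0.05), 2 without Ube3a m-/p+ mouse 3, 1816 without Ube3a m-/p+ mouse 1 and 2582 without WT mouse 1. With both mice numbered 1 left out, chosen after seeing the data, it was 4138.

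Of the 10 genes, 0 were called with the correction (edgeR; 1 at an unadjusted p below 0.05), 0 to 1 over the fits that each left out 1 mouse, and 4 without both mice numbered 1. Of the other superfamily genes, 1 was called with upper-quartile factors, 4 with DESeq2, 7 with no filter, 0 with the correction (edgeR; 14 at an unadjusted p below 0.05), 14 with an unadjusted p, 0 to 11 over the fits without 1 mouse and 17 without both mice numbered 1. Of the markers, 9 were called with DESeq2, 10 with no filter, 5 with a minimum of 10 counts, 15 with an unadjusted p, 0 to 14 over the fits without 1 mouse and 17 without both mice numbered 1. Over all genes, 272 of 14445 were called with upper-quartile factors, 951 of 14445 with DESeq2 and 1176 of 19291 with no filter. The correction called 92 of 14201, a minimum of 10 counts 392 of 13645 and an unadjusted p 2832 of 14445. Without both mice numbered 1, 4138 of 14631 (28.3%) were called. Whether the lists differed from all genes in these fits was not tested. The call of Bmpr1a was also lost with upper-quartile factors (adjusted p = 0.0526, edgeR). The log2 fold change of Ube3a was -0.20 with the correction and -0.73 to -0.48 over the fits without 1 mouse.

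Whether the replicate numbers pair the mice was not settled. The deviations of same-numbered mice from their genotype means had correlations of -0.285, -0.177 and -0.311. Of the 3 WT mice, 0 correlated best with their own number. These values cannot decide it, since the genotype means ran in opposite directions along GC content, so that mice alike in it deviate in opposite ways. The mice numbered 1 were alike there (Spearman's rho 0.0455 in WT and 0.0588 in Ube3a m-/p+). With the number as a block, 0 genes were called (edgeR; 2422 at an unadjusted p below 0.05), with 0 of the 10 genes (1 unadjusted), 0 other superfamily genes (9 unadjusted) and 0 markers (15 unadjusted). Ube3a was then at -0.57 and Tgfbr1 at -0.57 (adjusted p = 0.216 each, edgeR). With the block and the correction together, 13 genes were called, with 0 of the 10 genes (edgeR; 1 unadjusted), 0 other superfamily genes (9 unadjusted) and 0 markers (10 unadjusted), and Ube3a was at -0.19 and Tgfbr1 at -0.31.

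The direction turned for 4 of the genes named. Tgfbr2 was at -0.0094 with library size only (a scaling that moved the median of all genes from 0.0025 to -0.015), between -0.10 and 0.11 over the fits without 1 mouse and at -0.046 without both mice numbered 1. Smad2 was at 0.011 with the correction and 0.010 with the block added, and Smad3 at -0.031 and -0.030. Bmp5 was between -0.78 and 0.059 over the fits without 1 mouse. The causes were not tested. Tgfb1, Tgfb3, Lrrc32, Fstl3 and Tgif1 rest on few counts, and with 3 mice a genotype the exact test cannot go below 0.1.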

Other observations

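The balance between pathway genes within a library was computed from their counts, for 3 ratios chosen after the values of the genes were seen. The ratio of the type I receptor Tgfbr1 to the type II receptor Tgfbr2 in WT mice 1 to 3 was 1.77, 1.80 and 1.95, and the Ube3a m-/p+ mice 1 to 3 had 1.35, 1.08 and 1.32. All Ube3a m-/p+ mice lay below all WT mice, at 1.25 ± 0.148 against 1.84 ± 0.0937 (SD, n = 3 each; exact permutation p = 0.1, two-sided, the smallest possible; 0.3 adjusted over the 3 ratios). Since Tgfbr1 was already known to be lower, this is a description of the same difference.

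The ratio of Tgfb1 to Tgfb2 in WT mice was 0.0833, 0.0646 and 0.0464, and the Ube3a m-/p+ mice had 0.0645, 0.1003 and 0.130, with overlap (exact permutation p = 0.3, two-sided; 0.45 adjusted). The ratio of the inhibitor Smad7 to Smad4 in WT mice was 0.343, 0.248 and 0.210, and the Ube3a m-/p+ mice had 0.240, 0.301 and 0.458, also with overlap (exact permutation p = 0.5, two-sided; 0.5 adjusted).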
